A study of Mus musculus with 16 samples.

Results

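Myelin of the dorsal root ganglion (DRG) was followed through 8 genes: the myelin genes Mbp, Pmp22, Prx, Mag, Ncmap and Gjb1, and the transcription factors Egr2 and Sox10, which drive the myelin programme. The genes were chosen by name for their place in Schwann cells, with earlier results of these data known. All 8 were found among the 52636 genes counted and among the 21371 that passed the filter on low counts. No Schwann cells were sorted, so each value is a level in whole ganglia. The data comprise bulk RNA-seq of 16 libraries, each from the pooled lumbar DRGs of a single male C57Bl6/J mouse, with no transgene or deletion named, in 4 groups of 4 mice. Sham-Saline mice had sham surgery and saline, SNI-Saline mice had tibial spared nerve injury (SNI, in which the common peroneal and sural branches of the sciatic nerve are cut and the tibial branch is left) and saline, Sham-DMI mice had sham surgery and desipramine (DMI, a tricyclic antidepressant), and SNI-DMI mice had the injury and DMI. Treatment began 4 weeks after surgery by the labels and the results section of the study, whereas its methods count in months, and lasted 3 weeks with DMI at 15 mg/kg injected 2 times a day. The mice were 3 to 4 months old.

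Schwann cells wrap the larger axons of the peripheral nervous system in myelin, a compacted spiral of their own membrane that speeds conduction. In a DRG they surround the axons that enter and leave the ganglion, while satellite glia cover the cell bodies of the sensory neurons. SOX10 marks the whole Schwann and satellite glia lineage, EGR2 (also called KROX20) switches on the myelin genes together with SOX10, and Schwann cells that lose contact with an axon after nerve injury are known to lower both EGR2 and the myelin genes and to raise JUN. The spared nerve injury is made far from the ganglion, and the comparisons ask whether these genes differed in the DRG after long-standing injury and after DMI given to injured or to sham mice.

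Between 41194238 and 73920332 reads per library fell on genes, and the lowest count of any of the 8 genes in any library was 602 (Gjb1), so counting error was small beside the spread between mice. In the sample labels spinal cord is given as tissue and dorsal root ganglia as cell type. Markers of the central nervous system ranged from 0 to 23.7 CPM. Mog, a protein of oligodendrocyte myelin, was at 0.0512 to 0.749 CPM (depth-scaled counts from edgeR), Opalin at 0 to 0.168 CPM, Chat of motor neurons at 0.0151 to 0.0919 CPM, and 9 of 16 libraries held no Mnx1 count. Mobp, another oligodendrocyte gene, was at 1.81 to 23.7 CPM, and the astrocyte markers Aqp4 and Gfap were at 7.53 to 13.4 and 1.6 to 6.49 CPM, with counts in every library. The 8 sensory neuron markers summed to 8770 to 11646 CPM. Atf3, a marker of injured sensory neurons, was higher in SNI-Saline than in Sham-Saline by 2.32 on the log2 scale, and in Sham-DMI than in Sham-Saline by 0.69, both called by edgeR. The library numbers run in blocks by group (17 to 20 Sham-DMI, 21 to 24 SNI-DMI, 33 to 36 SNI-Saline, 37 to 40 Sham-Saline), so any effect of the order of handling and the effects of injury and DMI cannot be told apart.

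The 8 genes span a wide range of levels. Per kilobase of exon, the mean over the 16 libraries was 574 CPM per kb for Pmp22, a compact myelin membrane protein, and 182 for Mbp, the basic protein that holds the cytoplasmic faces of the membrane together. Prx, which links the Schwann cell membrane to its outer surroundings, followed at 91.5, Sox10 at 35.8, and Ncmap, a small membrane protein of non-compact myelin, at 29.0. Mag, the adhesion molecule on the membrane next to the axon, was at 10.6, Gjb1, the gap junction protein connexin 32, at 7.93, and Egr2 at 6.98 CPM per kb. Pmp22, Mbp and Prx kept this order in every library without any overlap between neighbours, while the ranges of Sox10 and Ncmap overlapped, as did those of Mag, Gjb1 and Egr2. The length used was that of all annotated exons of a gene together, 8469 bases for Mbp and 2354 for Pmp22. Without division by length the mean was 1541 CPM for Mbp and 1350 CPM for Pmp22, so the order of these 2 depends on the length used. Together the 6 myelin genes summed to 2517 to 4294 CPM, which is 0.252% to 0.429% of the scaled library size that edgeR used. In bulk tissue, fewer Schwann cells and less RNA per Schwann cell cannot be told apart.

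RefSeq promoter windows (build GRCm38.p6, the 250 bases before each start site) were at hand for 6 of the 8 genes, namely Pmp22, Prx, Mag, Ncmap, Gjb1 and Egr2. The windows of Prx, Mag and the most downstream start site of Gjb1 are shown because they hold short letter patterns of the same 2 factors that are measured here. The patterns searched on both strands were ACAAAG and ACAATG, the core recognised by SOX factors, and GCGTGGG and GTGGGCG, which are overlapping parts of one longer EGR motif. They were chosen with the windows in view. In the sequences, read 5′ to 3′ on the gene's strand, capitals mark a match or its reverse complement.
Gjb1, chrX:101383482-101383731, plus strand: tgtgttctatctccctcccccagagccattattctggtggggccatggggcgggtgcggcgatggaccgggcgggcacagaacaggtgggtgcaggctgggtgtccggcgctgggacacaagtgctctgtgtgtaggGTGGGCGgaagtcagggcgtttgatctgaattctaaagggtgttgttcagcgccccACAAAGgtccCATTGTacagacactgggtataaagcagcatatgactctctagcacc
Mag, chr7:30914923-30915172, minus strand: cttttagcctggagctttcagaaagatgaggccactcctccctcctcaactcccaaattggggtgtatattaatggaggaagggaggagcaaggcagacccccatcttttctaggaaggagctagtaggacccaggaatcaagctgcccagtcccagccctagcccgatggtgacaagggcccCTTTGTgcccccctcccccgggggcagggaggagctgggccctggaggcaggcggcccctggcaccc
Prx, chr7:27499074-27499323, plus strand: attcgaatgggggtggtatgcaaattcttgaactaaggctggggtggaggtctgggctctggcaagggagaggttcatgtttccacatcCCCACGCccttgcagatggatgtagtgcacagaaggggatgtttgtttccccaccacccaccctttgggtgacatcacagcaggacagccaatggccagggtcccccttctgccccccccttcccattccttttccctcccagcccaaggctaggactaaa
None of these 3 windows overlaps an exon of its gene in GENCODE M21. The Gjb1 window holds GTGGGCG from 113 to 107 bases before the start site, ACAAAG from 57 to 52 and, on the opposite strand, ACAATG from 47 to 42, so that both SOX cores lie beside each other. In Mag, ACAAAG lies on the opposite strand 67 to 62 bases before the start, and in Prx GCGTGGG lies on the opposite strand 161 to 155 bases before it. One Ncmap window also holds GCGTGGG, 35 to 29 bases before the start, and one Egr2 window holds GTGGGCG on the opposite strand, 31 to 25 bases before it. Another Mag window overlaps the one shown and holds the same ACAAAG, there 126 to 121 bases before its start. Another Gjb1 window holds ACAAAG 176 to 171 bases before its start. Windows of a gene can overlap, so windows with a match are not all separate sites. The 4 Pmp22 windows hold none of the letters. Such matches are common: over all 32851 windows, 16.5% hold ACAAAG, 10.7% ACAATG, 4.3% GCGTGGG and 7.02% GTGGGCG, and 34% hold at least one of the 4, against 7 of the 19 windows (36.8%) of these genes. A match describes the letters and is not a measured binding site.

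The genes of compact myelin came first. Mbp (chr18:82475146-82585637, plus strand, GRCm38) was at 1139, 1655, 1609 and 1250 CPM (Sham-Saline) and 1578, 1700, 1872 and 1803 CPM (SNI-Saline) with saline, and 1300, 1086, 1885 and 1794 CPM (Sham-DMI) and 1687, 1291, 1402 and 1599 CPM (SNI-DMI) with DMI. The SNI-Saline libraries lay within 1578 to 1872 CPM, whereas Sham-DMI was split, with replicates 3 and 4 above every SNI-DMI library, replicate 2 below all of them and replicate 1 below all but 1. Pmp22 (chr11:63128982-63159547, plus strand), whose duplication is a known cause of demyelinating neuropathy, was at 1101, 1388, 1374 and 1155 CPM (Sham-Saline) and 1417, 1389, 1597 and 1597 CPM (SNI-Saline) with saline, and 1138, 1032, 1628 and 1560 CPM (Sham-DMI) and 1378, 1156, 1306 and 1388 CPM (SNI-DMI) with DMI. Every SNI-Saline library lay above every Sham-Saline library, but the nearest pair, at 1389 and 1388 CPM, almost met, and so did the nearest pair of SNI-Saline and SNI-DMI.

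Prx (chr7:27499324-27520214, plus strand) encodes periaxin. Its levels were 346, 603, 628 and 432 CPM (Sham-Saline) and 475, 583, 687 and 652 CPM (SNI-Saline) with saline, and 412, 304, 590 and 567 CPM (Sham-DMI) and 525, 404, 445 and 517 CPM (SNI-DMI) with DMI, the widest range of the 8 genes, 2.26-fold from the lowest library to the highest. All 4 groups overlapped. Prx shares exon bases with the antisense gene Gm15541, and whether the counting used strand is not given in the sources used here, so part of its reads could not be assigned with certainty. Mag (chr7:30899176-30914873, minus strand), the myelin-associated glycoprotein, was at 30.1, 49.4, 43.7 and 38 CPM (Sham-Saline) and 38.5, 46.5, 53.3 and 50.2 CPM (SNI-Saline) with saline, and 35.8, 33.3, 48.5 and 54.4 CPM (Sham-DMI) and 43.4, 40.2, 42.9 and 44.4 CPM (SNI-DMI) with DMI. SNI-DMI was the tightest group, within 40.2 to 44.4 CPM, and both Sham groups spread below and above it.

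Ncmap (chr4:135369576-135398227, minus strand) had the lowest p of the 8 after injury. It was at 53.8, 61.7, 55.4 and 45.6 CPM (Sham-Saline) and 63, 68.4, 68.4 and 78 CPM (SNI-Saline) with saline, and 53.6, 52.5, 61.4 and 86.5 CPM (Sham-DMI) and 69.4, 66.4, 64.2 and 84.4 CPM (SNI-DMI) with DMI, with all SNI-Saline libraries above all Sham-Saline libraries and the highest value of all in Sham-DMI replicate 4. Gjb1 (chrX:101376378-101385629, plus strand), whose mutation causes an X-linked demyelinating neuropathy, was at 10.5, 14.8, 13.7 and 9.34 CPM (Sham-Saline) and 12.3, 15.2, 15.7 and 17.6 CPM (SNI-Saline) with saline, and 11.8, 8.84, 15.2 and 16.3 CPM (Sham-DMI) and 14.4, 11.5, 13.3 and 16 CPM (SNI-DMI) with DMI. Groups overlapped throughout, and the lowest library was Sham-DMI replicate 2, as it also was for Mbp, Pmp22, Prx, Egr2 and Sox10.

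The 2 transcription factors followed. Egr2 (chr10:67535475-67542188, plus strand) was at 19.3, 22.2, 25 and 22.3 CPM (Sham-Saline) and 23.3, 28.5, 25.3 and 27.7 CPM (SNI-Saline) with saline, and 18.1, 15.7, 26.2 and 26.4 CPM (Sham-DMI) and 26.1, 22.6, 25 and 25.8 CPM (SNI-DMI) with DMI. Its Sham-DMI libraries were again split, with replicates 1 and 2 below and replicates 3 and 4 above the Sham-Saline libraries. Sox10 (chr15:79154908-79165240, minus strand) was at 96, 136, 110 and 98.9 CPM (Sham-Saline) and 107, 118, 119 and 123 CPM (SNI-Saline) with saline, and 88.6, 82.6, 108 and 106 CPM (Sham-DMI) and 111, 112, 103 and 126 CPM (SNI-DMI) with DMI. The highest value was in a Sham-Saline mouse, and no pair of groups was separated.

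**Figure D1:**
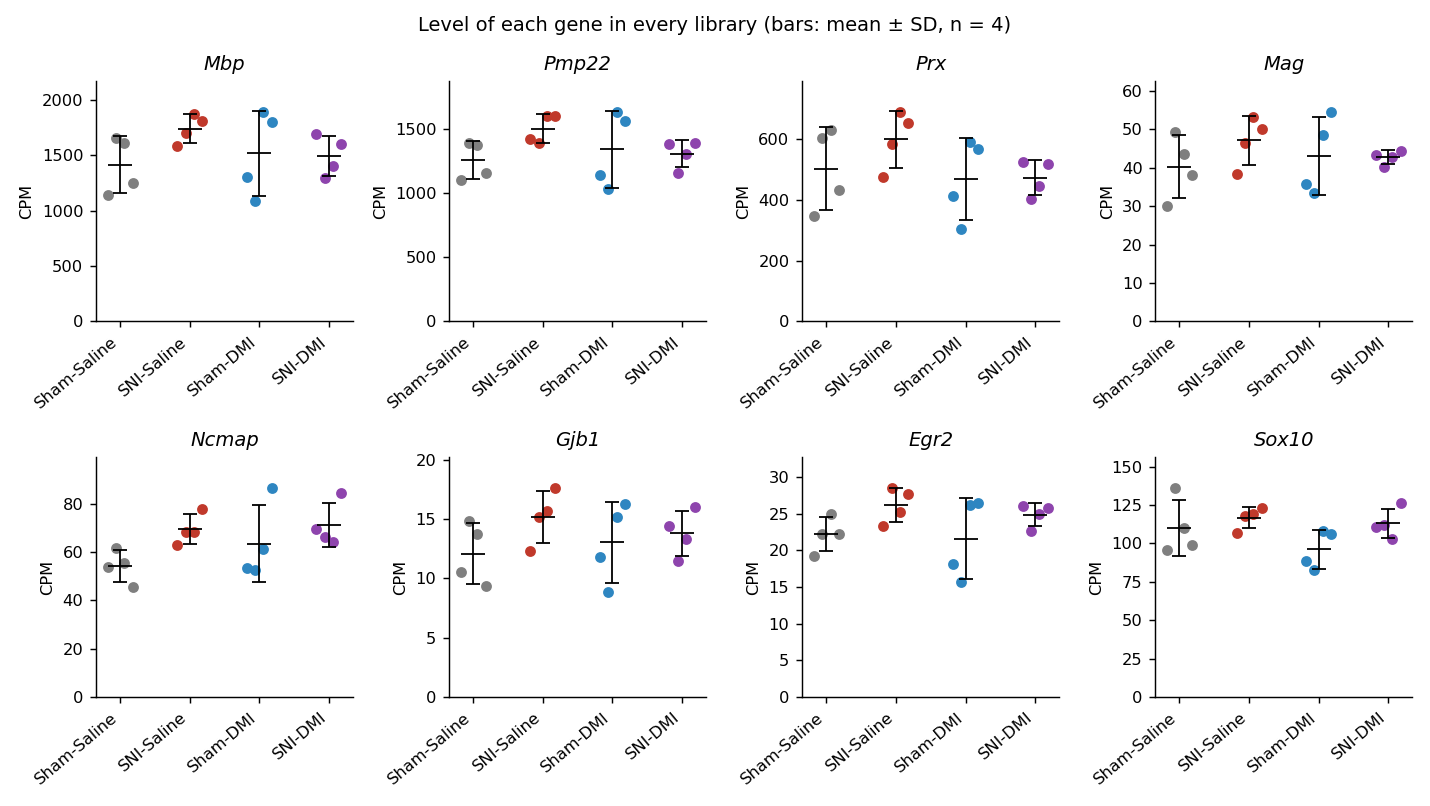
Level of each of the 8 genes (CPM, linear axis from 0) in every library, 4 points per group in the order of replicates, with the mean and SD of the group in black. In Sham-DMI the points of Mbp, Pmp22, Prx, Mag, Gjb1 and Egr2 lie in a low and a high pair, and for Ncmap the SNI-Saline points, 63.0 to 78.0 CPM, lie above those of Sham-Saline, 45.6 to 61.7 CPM.

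The first comparison was injury under saline. All 8 genes had a higher mean in SNI-Saline than in Sham-Saline, with log2 fold changes from 0.08 (Sox10) to 0.36 (Ncmap) and a median of 0.26 beside -0.001 over all genes tested. The 8 genes moved together from mouse to mouse within groups (median r 0.85, given below). A shared direction, here or in the later comparisons, is therefore not 8 separate results. None of the 8 genes passed an adjusted p under 0.1 in edgeR's quasi-likelihood test, with a lowest adjusted p of 0.111 and a highest of 0.686, whereas 12.0% of all genes tested were called. At an unadjusted p under 0.05 there were 2 of 8, Ncmap and Pmp22. Ncmap stood at 69.4 ± 6.24 CPM in SNI-Saline against 54.1 ± 6.61 in Sham-Saline (mean ± SD, n = 4 each), 1.28-fold higher with a 95% confidence interval of 1.06 to 1.56. It alone met the cut-offs that the study used for differentially expressed genes, a nominal p under 0.05 and a log2 fold change of 0.32 or more in either direction, which 7.15% of all genes met. Its adjusted p was 0.111 with edgeR on all 16 libraries (0.0239 to 0.265 over the alternatives and the fits without 1 library), 0.0479 with DESeq2, which called only Ncmap of the 8, and 0.0239 with edgeR on the 8 libraries of this comparison. Among the fits without 1 library, only some made the call. They left out Sham-Saline replicate 2 (adjusted p 0.0785) or Sham-DMI replicate 1 (0.0874), 2 (0.075) or 4 (0.0377). In other settings Ncmap was not called and its log2 fold change fell below the 0.32 cut-off. It was 0.275 (adjusted p 0.265) with GC content and exon length trends removed. With the replicate number also taken as a block it was 0.258 (0.261). Leaving out replicate 4 of Sham-Saline gave 0.291 (0.26), and dropping replicate 4 of SNI-Saline gave 0.301 (0.246).

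Pmp22 was 1.2-fold higher after injury (1500 ± 113 against 1254 ± 148 CPM, log2 fold change 0.26 with SE 0.121, edgeR adjusted p 0.211), and Mbp 1.23-fold higher (1738 ± 128 against 1413 ± 257 CPM, adjusted p 0.244). With edgeR on the 8 libraries of the comparison alone, Pmp22 (adjusted p 0.0672) and Egr2 (0.0974) also passed. Gjb1 was 1.26-fold and Prx 1.19-fold higher, with 95% intervals of 0.974 to 1.62 and 0.899 to 1.58. Mag was at 47.1 ± 6.41 against 40.3 ± 8.26 CPM. Egr2 had a ratio of 1.18 and Sox10 of 1.06, with an interval of 0.912 to 1.23. For 2 of the 8 genes, Ncmap and Pmp22, the 4 libraries of each group did not overlap, beside 15.4% of all genes tested. No 95% interval of the 8 ratios reached below 0.899.

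The second comparison was DMI under injury, SNI-DMI against SNI-Saline, which shares its SNI-Saline libraries with the first. Means were lower in SNI-DMI for 7 of the 8 genes and higher for Ncmap (0.03), with a median log2 fold change of -0.14 beside -0.005 over all genes. No gene of the 8 had an adjusted p under 0.1 in edgeR (lowest 0.353), an unadjusted p under 0.05 or an adjusted p under 0.1 in DESeq2, where edgeR called 2.93% of all genes and 5.73% met the study's cut-offs. The lowest estimate was that of Prx, at 472 ± 58.2 CPM in SNI-DMI and 599 ± 93.4 in SNI-Saline, a ratio of 0.788 with a 95% interval of 0.594 to 1.05. Pmp22 was the single gene of the 8 whose groups did not overlap, beside 13.3% of all genes, at 1307 ± 107 against 1500 ± 113 CPM (edgeR adjusted p 0.392). Mbp had a ratio of 0.86 (0.692 to 1.07), and Sox10 of 0.964 (0.83 to 1.12).

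In sham mice DMI left the genes on both sides of 0. Against Sham-Saline, 5 of the 8 were higher and 3 lower in Sham-DMI, with log2 fold changes from -0.2 (Sox10) to 0.23 (Ncmap), a median of 0.09 and a median over all genes of -0.021. None passed in edgeR (lowest adjusted p 0.21, Sox10) or DESeq2, none had an unadjusted p under 0.05, and none had groups without overlap, in a comparison where 23.4% of all genes were called, 11.5% met the study's cut-offs and 17.1% did not overlap. Sox10 was at 96.5 ± 12.8 CPM in Sham-DMI and 110 ± 18.4 in Sham-Saline. Without Sham-DMI replicate 2, Ncmap passed with a log2 fold change of 0.33 (edgeR adjusted p 0.0938), where all libraries gave 0.23 and 0.259.

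Between injured and sham mice under DMI, log2 fold changes ran from -0.04 (Pmp22) to 0.23 (Sox10), and none of the 8 was called by edgeR or DESeq2. One, Sox10, had an unadjusted p under 0.05 (edgeR adjusted p 0.39), at 113 ± 9.56 CPM in SNI-DMI. Of all genes, 0.402% were called, 5.41% met the study's cut-offs and 5.04% had groups without overlap, and none of the 8 did either. The difference between both DMI effects, taken as an interaction term, was negative for 7 of the 8 genes, with a median log2 value of -0.24 (0.006 over all genes) and the most negative value for Mbp, -0.32 with SE 0.212. No gene of the 8 passed that test in edgeR (lowest adjusted p 0.671) or DESeq2, none had an unadjusted p under 0.05, and 0.0% of all 21371 genes were called, although 1692 had an unadjusted p under 0.05. The effects of DMI in injured and in sham mice were therefore not shown to differ for these genes.

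**Figure D2:**
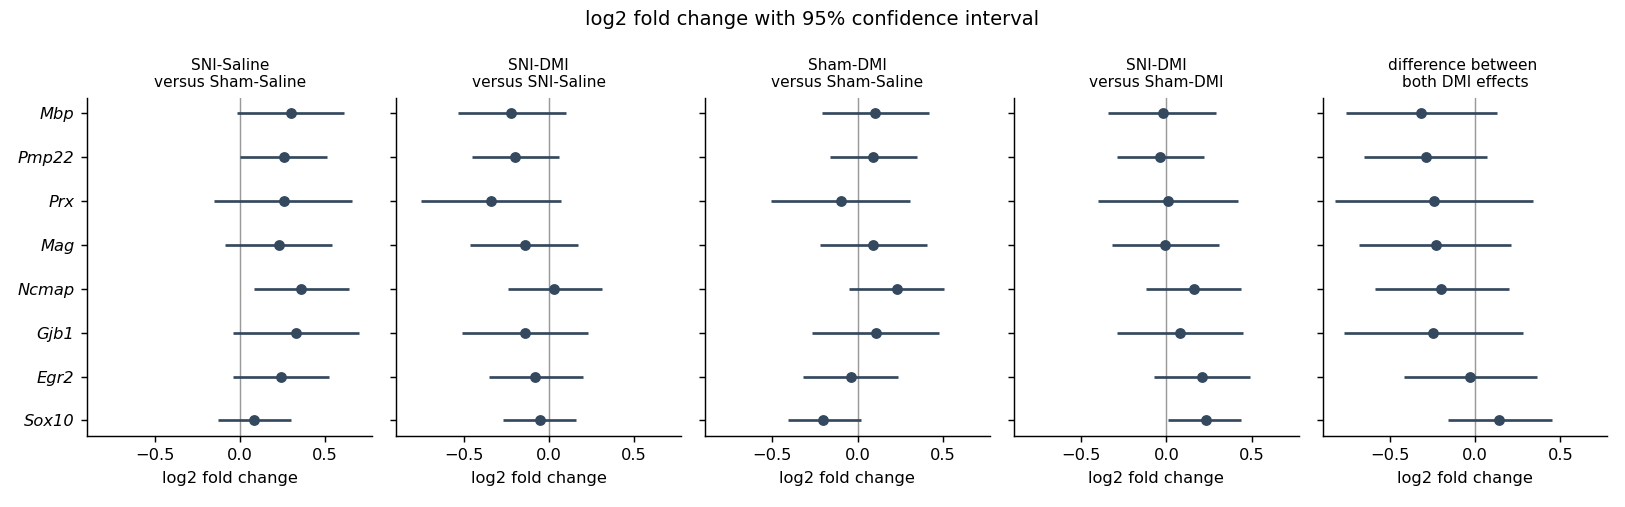
log2 fold change of each gene (points) with its 95% confidence interval (lines) in the 4 group comparisons and in the difference between both DMI effects, from the edgeR fit of all 16 libraries. All 8 points lie right of 0 for SNI-Saline versus Sham-Saline and 7 of 8 lie left of 0 for SNI-DMI versus SNI-Saline, while the intervals span 0 except those of Ncmap and Pmp22 after injury and of Sox10 in SNI-DMI versus Sham-DMI.

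Mice within a group differed more in these genes than in most. The SD of log2 CPM within groups was 0.338 for Prx, 0.294 for Gjb1, 0.254 for Mbp, 0.253 for Mag, 0.22 for Egr2, 0.218 for Ncmap, 0.202 for Pmp22 and 0.167 for Sox10. The median over the 10509 genes with a mean of at least 10 CPM was 0.096, and the 8 genes stood at percentiles 89.7 (Sox10) to 98.8 (Prx) of that distribution. The group accounted for 13.3% (Mag) to 40.5% (Ncmap) of the variance of each gene, beside a median of 35.7% over all genes tested.

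The 8 genes moved together from mouse to mouse. In Sham-DMI replicate 2 all 8 lay below the mean of their group, by 0.21 to 0.57 on the log2 scale, and in Sham-DMI replicate 4 all 8 lay above it, by 0.15 to 0.48. Sham-DMI replicate 1 was also low in all 8. In Sham-Saline, replicate 1 had all 8 below (Ncmap barely) and replicates 2 and 3 all 8 above, while replicate 4 had 7 below. SNI-Saline replicate 1 and SNI-DMI replicate 2 were likewise low in all 8, and replicate 4 of both injured groups was high in all 8. With the group means removed, all 28 pairs of genes were positively related over the 16 libraries, with Pearson's r from 0.63 to 0.97 (median 0.85) and Spearman's rho from 0.55 to 0.97, and the highest adjusted permutation p-value of any r or rho was 0.0309 (100000 permutations, two-sided, Benjamini-Hochberg over the 28 pairs). Removing the group means ties the 4 libraries of a group to each other, which the permutations do not take into account. Mbp was related most closely to Pmp22 and Prx (r = 0.97 each), and Ncmap to Egr2 least (r = 0.63, and 0.52 without the 2 libraries farthest from the median). Over the 28 pairs, r was 0.52 to 0.96 without the 2 farthest libraries, 0.31 to 0.98 within the 8 saline libraries and 0.69 to 0.99 within the 8 DMI libraries.

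**Figure D3:**
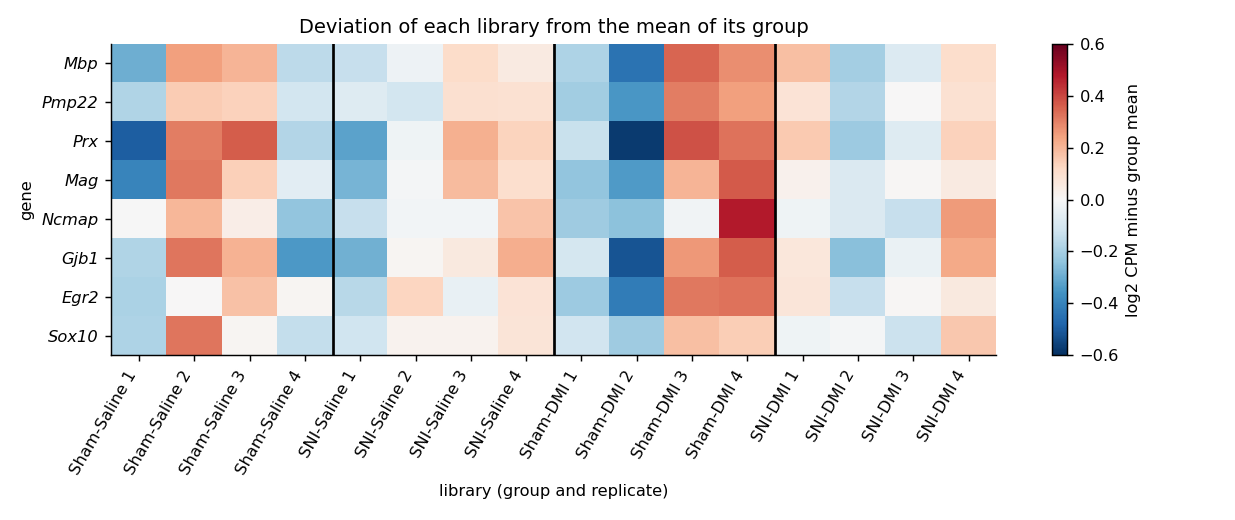
Deviation of log2 CPM from the mean of its group for each gene (rows) and library (columns, black lines between groups), with red above and blue below the group mean. Columns tend to hold one colour, for example Sham-DMI replicate 2, which is blue in all 8 rows, and Sham-DMI replicate 4, which is red in all 8.

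Ratios between the genes were steadier than their levels, which follows from the SDs and correlations above and is not a separate result. The SD of the log2 ratio to Mbp within groups was 0.0768 for Pmp22, 0.11 for Prx, 0.113 for Mag, 0.118 for Gjb1, 0.123 for Egr2, 0.146 for Sox10 and 0.193 for Ncmap, each below the SD of the gene itself. Relative to Sox10, log2 Mbp was with saline 3.67 ± 0.135 after sham surgery and 3.89 ± 0.06 after injury, and with DMI 3.95 ± 0.187 and 3.73 ± 0.169 (mean ± SD, n = 4 each). For Mbp the ranges overlapped between SNI-Saline and every other group. For Ncmap the log2 ratio to Sox10 ran from -1.14 to -0.84 in Sham-Saline and lay wholly above that in the other groups, at -0.79 to -0.66 (SNI-Saline), -0.82 to -0.3 (Sham-DMI, the nearest) and, for injury with DMI, -0.75 to -0.57. For Mag the log2 ratio to Sox10 in Sham-DMI, -1.31 to -0.96, also lay wholly above that in Sham-Saline, -1.67 to -1.33. These ratios are descriptions, with no test of the groups, and the share of all genes whose ratio separates in this way was not counted.

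The genes most like the 8 were sought by the correlation of log2 CPM with the mean of the 8 standardised genes over all 16 libraries, as a description. The nearest of 21363 other genes was Cldn19 (r = 0.98), a tight junction protein of the Schwann cell, followed by Fam178b (0.971), Plekhb1 (0.963), Ndrg1 (0.961), whose loss causes a demyelinating neuropathy, and Mal (0.96), a proteolipid of myelin. Sema3b (0.957), Smtn (0.956), Fa2h (0.952), which hydroxylates the fatty acids of myelin lipids, Cdc42ep1 (0.948) and Evc2 (0.946) completed the first 10. With the group means removed these 10 were at 0.935 to 0.987. In all, 46 genes had r over 0.9. None of the 10 nearest genes was called in any of the 5 edgeR comparisons, where their lowest adjusted p-values ran from 0.161 (Sema3b) to 0.535 (Fa2h). They were picked for a profile like that of the 8 genes, of which none was called in that fit, so this is not a separate result.

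Other genes tied to Schwann cells and myelin were read from 7 hand-written lists of 61 genes, of which 60 were tested. The lists are not limited to genes made by Schwann cells, and the axon to Schwann cell signalling list covers both sides. In whole ganglia a call on them is therefore not assigned to a cell type. The list of 10 further myelin structure genes had no call in any comparison. After injury all 10 had higher means (median log2 fold change 0.24). With group means removed this list moved with the 8 genes (r = 0.98), so its direction is not a separate result. Over the 7 lists, 4 genes were called higher and 4 lower after injury, 13.3% of the tested genes beside 12.0% of all genes. The calls with the smallest p were Jun, the transcription factor of the injured Schwann cell (log2 fold change 0.36, SE 0.0819, adjusted p 0.0221), Yy1, an activator of Egr2 (-0.2, adjusted p 0.0279), Scn7a, a sodium channel (-0.3, 0.0332), Fgd4, a gene of demyelinating neuropathy (-0.3, 0.0586), Gal3st1, which sulphates galactolipids of myelin (0.31, 0.082), and the growth factor Gdnf (1.08, 0.082, at 0.498 against 0.232 CPM). Jun is also made by injured sensory neurons, of whose 6 markers 5 were called higher in this comparison, and 3 of 6 macrophage markers were called higher too. Their part in the calls was not tested.

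Under DMI in injured mice the lists held 1 call of 60 (1.67%), Nab1, a co-regulator that binds EGR factors, which was lower at 42.4 ± 3.08 against 49.8 ± 2.84 CPM (log2 fold change -0.23, edgeR adjusted p 0.0852). Under DMI in sham mice 1 was higher and 14 were lower, 25.0% beside 23.4% of all genes. Of the 10 transcriptional regulators on the lists, 6 were lower and 4 were not called, and all 10 had a lower mean (median log2 fold change -0.21). The calls with the smallest p were Fgd4 (-0.45, SE 0.0901, adjusted p 0.00412), Tead1, a partner of YAP and TAZ (-0.46, 0.00668), Nab1 (-0.25, 0.0121), Zeb2, a repressor needed for Schwann cell maturation (-0.34, 0.0124), Scn7a (-0.3, 0.0126) and Wwtr1, which encodes TAZ (-0.38, 0.023). Markers of other cells moved in the same comparison. Of 8 sensory neuron markers 4 were called higher (Uchl1 0.25, Tubb3 0.25, Prph 0.23 and Nefh 0.22 on the log2 scale), as were 4 of 6 injured sensory neuron markers, while 1 of 5 endothelial markers (Flt1, -0.47) and 1 of 6 macrophage markers (Mrc1, -0.4) were called lower, and of 7 satellite glia markers 2 were higher and 1 lower. Their part in the lower values of the listed genes was not tested. Between injured and sham mice under DMI, and for the difference between both DMI effects, the lists held no edgeR call (0.0%).

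Markers of other cells were set beside the 8 genes library by library, as the correlation of their mean deviation with that of the 8 genes, group means removed (16 libraries), as a description. The myelin structure list was at r = 0.98, the myelin lipid enzymes at 0.96, the demyelinating neuropathy genes at 0.87, the transcriptional regulators at 0.81 and the axon to Schwann cell signalling list at 0.69, whereas the immature and repair Schwann cell list was at 0.29 and the lineage genes shared with satellite glia at 0.43. Of the lists for other cell types, fibroblast and perineurium markers were at 0.80 (6 of 6 genes rising with the 8, 0.78 within saline and 0.88 within DMI) and their summed level ran with saline from 452 to 672 CPM after sham surgery and 494 to 711 after injury, and with DMI from 424 to 597 and 465 to 625 CPM. Endothelial markers were at 0.59 (0.84 without the 2 farthest libraries, 0.85 within saline and 0.41 within DMI), oligodendrocyte markers at 0.50 (0.7 and 0.35 within saline and DMI) and macrophage markers at 0.46 (0.22 and 0.6). Of the spinal astrocyte and motor neuron markers, Chat and Mnx1 did not pass the filter on low counts. The remaining 2, the astrocyte markers Aqp4 and Gfap, were at 0.45 (0.47 within each), with 1 of them rising with the 8 genes. Adipocyte markers were at 0.39 (0.35 and 0.41). Satellite glia markers were at 0.17 over all libraries, -0.57 within saline and 0.51 within DMI, and sensory neuron markers at -0.16, -0.54 and 0.06. Injured sensory neuron markers were at 0.20 over all libraries (0.52 without the 2 farthest), 0.76 within saline and -0.04 within DMI, and skeletal muscle markers at -0.21, -0.2 and -0.22. The part of any of these in the spread of the 8 genes was not tested.

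**Figure D4:**
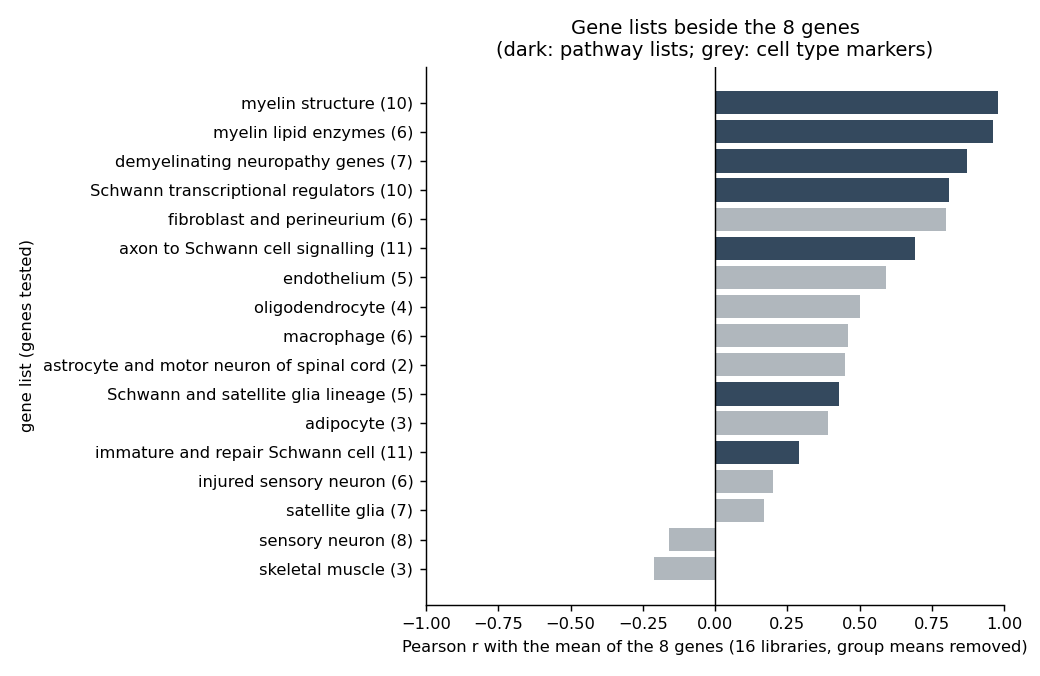
Pearson's r between the mean deviation of each gene list and that of the 8 genes over 16 libraries with group means removed (horizontal axis from -1 to 1), with the number of genes tested in brackets; dark bars are pathway lists and grey bars are cell type markers. Myelin structure (0.98) and lipid enzymes (0.96) stand at the top, and sensory neuron (-0.16) and skeletal muscle (-0.21) markers at the bottom.

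Oligodendrocytes share some of the 8 genes with Schwann cells, among them Mbp, Mag and Sox10. Their markers summed with saline to 4.8 to 15.5 CPM after sham surgery and 5.58 to 26.8 after injury, and with DMI to 4.87 to 13.9 and 2.92 to 9.37 CPM, most of it Mobp, which was lower in SNI-DMI than in SNI-Saline (3.95 ± 2.91 against 14 ± 8.52 CPM, edgeR adjusted p 0.0973). The depth of the library was related to the mean deviation of the 8 genes with r = -0.27 over the 16 libraries, 0.8 within the 8 saline libraries and -0.6 within the 8 DMI libraries. For the share of reads on no feature r was -0.17, and for the share of ambiguous reads 0.34. Removing smooth trends on GC content and exon length from each library left the median of the 28 correlations at 0.853 (0.849 before).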

How the data were processed

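RNA from the DRGs of 16 mice (4 per group, 1 mouse per library) was made into stranded mRNA libraries and sequenced in pairs of short reads by the authors. The deposited values are whole-number counts per Ensembl gene without normalization. Per the labels, HISAT2, HTSeq and DESeq2 were used with build mm10. Of these only DESeq2 has a version in the study's methods, and the annotation release and the strand setting of the counting are not given in the sources used here. The 5 closing lines of unassigned reads, 18.83% to 20.44% of each library, were left out. Symbols and coordinates come from GENCODE M21 (GRCm38), which holds 52489 of the 52636 genes.

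The test was edgeR 4.0.16 in R 4.3.3 (filterByExpr, TMM, glmQLFit with 1 coefficient per group, all 16 libraries), with Benjamini-Hochberg adjustment over 21371 genes and a threshold of 0.1. log2 CPM used a prior count of 2. Alternatives used DESeq2 1.42.0, upper-quartile scaling, other filters on low counts, the libraries of 2 groups only, the replicate number as a block, and trends on GC content and exon length removed with mgcv 1.9.3. Each library was also left out in turn. Correlations used python 3.11.15, numpy 2.4.6 and scipy 1.17.1. The fits and permutation tests were tested on simulated data. Replicates of a group differed by a chi-square per gene of 10.4 to 44.3, where counting error gives about 1.

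Named are the 8 genes, at most 6 pathway genes per comparison with the smallest p among those with an adjusted p under 0.1, and the 10 genes most alike. Some genes that the rule names are not reported here. The genes, lists, motifs and tests were chosen with earlier results of these data known.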

Additional observations from a re-analysis of the deposited data

Results flagged for a closer look

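Each of the 8 genes and 10 summed marker lists was examined for a library far from the other 3 of its group (Dixon's ratio past its critical value). Of 72 groups, 32 for the 8 genes and 40 for marker lists, 5 had such a library, where chance gives about 1 in 20, and none of the 5 concerned the 8 genes. Skeletal muscle markers summed to 175 CPM in SNI-DMI replicate 2 (1.25 to 1.8 in the others) and to 31.7 CPM in Sham-Saline replicate 1 (0.935 to 3.99 in the others). Endothelial markers summed to 64.0 CPM in Sham-DMI replicate 1 (80.4 to 82.4 in the others). Oligodendrocyte markers summed to 9.37 CPM in SNI-DMI replicate 3 (2.92 to 3.77 in the others). Adipocyte markers summed to 13.9 CPM in Sham-DMI replicate 4 (0.598 to 2.8 in the others). Of these libraries, SNI-DMI replicate 2, Sham-Saline replicate 1 and Sham-DMI replicate 1 had all 8 genes below the mean of their group. Sham-DMI replicate 4 had all 8 above it, and SNI-DMI replicate 3 had 3 above and 5 below. Many libraries without a flag also had all 8 on the same side. They were Sham-Saline replicates 2 and 3, SNI-Saline replicates 1 and 4, Sham-DMI replicate 2 and SNI-DMI replicate 4. A link between the flags and the 8 genes was not tested.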

How the results depend on the processing

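The count of the 8 genes called after injury was 0 with edgeR on all libraries, 1 with DESeq2 and 1 with no filter on low counts (Ncmap in both, at an adjusted p of 0.0557 without the filter), 3 with the libraries of the 2 groups only, and 0 to 1 without 1 library. For Sham-DMI versus Sham-Saline it was 0 to 1 without 1 library, and for the other 3 comparisons it was 0 under every alternative run. The GC and length trends and leaving out libraries were applied to the 28 correlations after seeing the data, and without 1 library their median was 0.803 to 0.873.

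Whether the replicate numbers pair the mice was not settled, because correlations this weak can neither show nor exclude a pairing. Libraries with the same number in 2 groups had deviations correlated at -0.081 to 0.184, and not every library was nearest its own number. The highest r was 0.184 for the same number and 0.072 for other numbers in SNI-Saline versus Sham-Saline. In SNI-DMI versus SNI-Saline these values were 0.184 and 0.06. The order was the reverse in Sham-DMI versus Sham-Saline (0.129 and 0.154) and in SNI-DMI versus Sham-DMI (-0.009 and 0.169). With the replicate block, 0 of the 8 genes were called in any comparison. For SNI-DMI versus Sham-DMI the log2 fold changes of Mbp (0.003) and Mag (0.013) then turned positive.

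Other turns of sign concerned values near 0. With GC content and exon length trends removed, Ncmap was at -0.046 in SNI-DMI versus SNI-Saline, Gjb1 at -0.008 in Sham-DMI versus Sham-Saline, and Prx at -0.039 in SNI-DMI versus Sham-DMI. With the block and the trends removed, these 3 were at -0.049, -0.038 and -0.001, Mbp at 0.006 in SNI-DMI versus Sham-DMI, and the DMI difference of Egr2 at 0.001. Without 1 library, in SNI-DMI versus SNI-Saline, Ncmap ran from -0.059 to 0.096 and Sox10 from -0.109 to 0.005. In Sham-DMI versus Sham-Saline, Mbp ran from -0.006 to 0.251, Prx from -0.227 to 0.078, Mag from -0.028 to 0.216, Gjb1 from -0.008 to 0.274 and Egr2 from -0.14 to 0.104. In SNI-DMI versus Sham-DMI, Mbp ran from -0.145 to 0.113, Pmp22 from -0.135 to 0.084, Prx from -0.141 to 0.156, Mag from -0.107 to 0.114 and Gjb1 from -0.06 to 0.199. The DMI difference of Egr2 ran from -0.166 to 0.071. Without 1 library, 597 of 640 fold changes of the 8 genes kept their direction and side of the threshold, as did 297 of 312 under the other alternatives. The causes were not tested. Counting error was small beside the spread between the 4 libraries of a group, and what that spread comes from was not tested.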

Other observations

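Genes that ran against the 8 were sought in the same way as those most like them. The 3 most opposite genes over the 16 libraries were Dusp22 (r = -0.884, mean 55.9 CPM), Glt1d1 (-0.866, 12.4 CPM) and Gm47113 (-0.854, 0.882 CPM). With the group means removed they were at -0.867, -0.865 and -0.815, and none was called in any of the 5 edgeR comparisons (lowest adjusted p 0.263). They were picked for these values, so the correlations and the lack of calls are descriptions.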
